A study of Mus musculus with 10 samples.

Results

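The mRNA of 10 genes was followed in the livers of Gnmt knockout mice: the keratins Krt7, Krt8, Krt18, Krt19 and Krt23, the surface proteins Epcam and Prom1, the secreted proteins Spp1 and Tff3, and the transcription factor Sox9. Members were taken by gene symbol, and where a gene had several probe sets the brightest on average over the 10 Affymetrix arrays was used. A named probe set was found for 9 of the 10 genes among 18193 genes in all, and Spp1 was not analysed here. Of these 9, Krt7 had a mean signal below 91, the median of all values, so 8 genes were tested among the 11507 genes whose mean was above it. The values are deposited linear signal intensities, and every array had been scaled to the same trimmed mean of 500. Differences are on the scale of log2(signal + 16.8).

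All mice were of a mixed 129/B6 strain. Dysplasia nodules, labelled in the plural and called the nodule here, came with adjacent liver from a Gnmt knockout female of 21 months. Carcinomas (HCC) with adjacent liver came from a knockout male of 18 months and a knockout female of 14 months. At 11 weeks there were 2 arrays of knockout liver and 2 of wild-type liver, each a female or a male pool of 3 mice. Gnmt encodes glycine N-methyltransferase, a hepatocyte enzyme that uses S-adenosylmethionine. Every aged array is a knockout, so genotype was compared at 11 weeks only, and each aged array came from a single mouse. The labels number no mice, and a lesion was matched to adjacent liver through sex and age.

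Keratins are the intermediate filaments of epithelial cells and are built from pairs of a type I and a type II chain. Hepatocytes carry a single such pair, keratin 8 with keratin 18, which protects them against mechanical and toxic stress. Bile duct cells (cholangiocytes) add keratin 7 and keratin 19, and they and the liver's progenitor cells also carry EpCAM, SOX9, osteopontin (the product of Spp1) and prominin-1.

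The genes of the hepatocyte pair are neighbouring protein-coding genes on mouse chromosome 15, on opposite strands, with their starts 23.9 kb apart. Because Krt8 and Krt18 moved together over the arrays, their promoters are shown from RefSeq (GRCm38.p6), each running from 250 bases before to 50 bases after the annotated start. RefSeq promoters were at hand for 7 of the 10 genes. The Krt8 window is chr15:102004293-102004592 on the minus strand and the Krt18 window is chr15:102027966-102028265 on the plus strand. Capitals mark matches to the TATA box (TATAAA, either strand).
Krt8: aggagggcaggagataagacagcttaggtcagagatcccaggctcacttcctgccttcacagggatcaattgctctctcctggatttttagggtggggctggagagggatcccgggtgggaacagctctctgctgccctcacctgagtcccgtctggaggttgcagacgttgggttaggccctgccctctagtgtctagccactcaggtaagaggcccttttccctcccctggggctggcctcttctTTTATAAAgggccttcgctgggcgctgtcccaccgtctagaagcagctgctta
Krt18: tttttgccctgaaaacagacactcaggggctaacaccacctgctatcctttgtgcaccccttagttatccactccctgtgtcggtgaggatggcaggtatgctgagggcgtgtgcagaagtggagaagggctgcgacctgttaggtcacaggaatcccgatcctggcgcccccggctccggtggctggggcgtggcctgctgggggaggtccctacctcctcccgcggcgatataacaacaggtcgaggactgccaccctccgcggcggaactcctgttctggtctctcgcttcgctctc
The capitals in the Krt8 window hold 2 overlapping matches, 1 on each strand, which begin 3 bases and 1 base before the annotated start. TATAAA is present in 13.6% of the 32851 mouse promoter windows of this length. The Sp1 box GGGCGG, present in 35.7% of the windows, and the AP-1 site TGANTCA, present in 7.81%, were searched on both strands and had no match in either window. The Krt18 window held none of the 3 motifs.

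Gnmt had signals of 245.2 and 190 in the female and male knockout pools at 11 weeks, against 59472.6 and 52139.9 in the female and male wild-type pools, and 11.7 to 329.4 in the 6 aged knockout arrays. All 10 arrays therefore followed their genotype labels. Median signals were 77.4 to 102.4 per array, and precision is limited by how few arrays there are. The hepatocyte markers, 11 of 12 with a probe set, had summed signals of 393591.7 to 625602.6 over the arrays. The cholangiocyte markers, 10 of 12 with a probe set, had summed signals of 604.5 to 2050.1, and 5 of them were above the signal limit of 91. They include the members Krt7, Krt19, Epcam and Sox9, so their sums are no separate reading from these genes. In whole liver, fewer cells of a type and less RNA per cell cannot be told apart.

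Both genes of the hepatocyte keratin pair were higher in knockout than in wild-type liver at 11 weeks, by more than 3-fold. Krt8 had signals of 13240.3 and 24769.8 in the female and male knockout pools, against 3836.0 and 6624.4 in the female and male wild-type pools. Krt18 had signals of 15139.8 and 23324.8 in the knockout pools, against 5632.2 and 5887.3 in the wild-type pools, in the same order of sex. For both genes the lower knockout pool was well above the higher wild-type pool. The log2 difference was 1.84 ± 0.19 (SE) for Krt8, a fold of 3.58, with an adjusted p of 0.0181 by limma. For Krt18 it was 1.70 ± 0.21 (SE), a fold of 3.26, with an adjusted p of 0.0266. The Krt8 difference was 1.78 in females and 1.90 in males, and that of Krt18 was 1.42 in females and 1.98 in males. Krt8 and Krt18 were 2 of 8 members called higher, where 0.365% of all genes tested were called higher (42 of 11507), and no member was among the 46 genes called lower (0.4%). The members were chosen with earlier results of these data known. These counts of members and those below, set beside shares of all genes, are therefore descriptions only. The 75th percentile of each array as centre gave 178 genes higher and 80 lower, and the median of all genes then moved to 0.10, against -0.05 as deposited; the Krt8 and Krt18 differences were then 1.99 and 1.85.

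All 3 probe sets of Krt8 gave the same picture. Another had signals of 13345.1 and 20790.7 in the knockout pools, against 3866.4 and 5279.5 in the wild-type pools. The remaining one had 15220.5 and 23691.6 in the knockout pools, against 4119.6 and 5889.6 in the wild-type pools. In a fit with each probe set as a row of its own the 3 differences were 1.84, 1.88 and 1.94, each with an adjusted p of 0.0049 by limma. Probe sets of 1 gene share the RNA and the array and are no replicates.

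**Figure D1:**
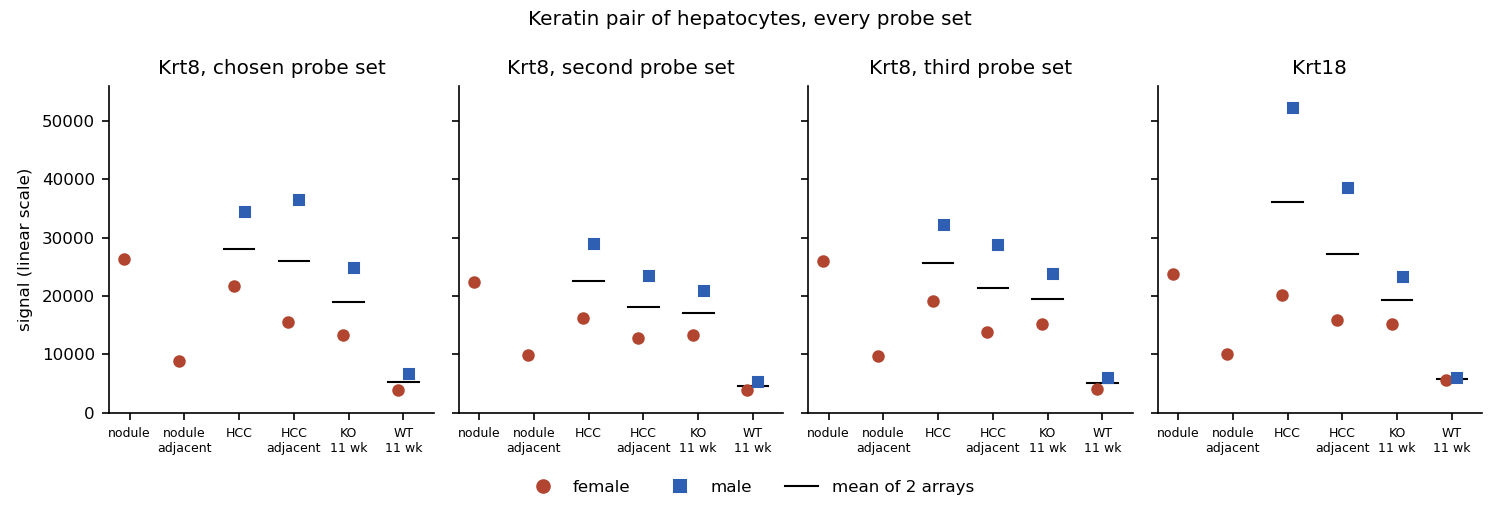
Signal (linear axis from 0) of the 3 Krt8 probe sets and the Krt18 probe set in every array, by group; circles are females, squares are males, and bars are means of 2 arrays. All 8 knockout arrays lie above both wild-type arrays in each panel, and the nodule lies above its adjacent liver.

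The keratin calls rest on 4 pools and on the spread shared across genes, as the fit leaves 1 residual degree of freedom. They were lost without the intensity trend in the variance (adjusted p 0.25 for both), without the sex term (0.151 for Krt8 and 0.108 for Krt18) and in 1 fit over all 10 arrays (0.144 and 0.224), and in that last fit no adjusted p was below 0.249 when any 1 pool was left out. None of these changed the direction.

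Across all groups, Krt8 averaged 27992.1 ± 8954.2 in HCC, 25993.5 ± 14708.0 in HCC-adjacent liver, 19005.0 ± 8152.6 in knockout liver and 5230.2 ± 1971.7 in wild-type liver at 11 weeks (SD, n = 2 each), with 26422.7 in the nodule and 8934.5 beside it. Krt18 averaged 36182.3 ± 22754.8, 27176.8 ± 15997.9, 19232.3 ± 5787.7 and 5759.8 ± 180.4 in these 4 groups in that order, with 23811.2 in the nodule and 10027.2 beside it. The lowest of the 8 knockout signals was the nodule-adjacent liver for both genes, and it was still above the higher wild-type pool. Neighbouring knockout groups overlapped, so their order is not resolved by these arrays.

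Other cell type markers also differed between the genotypes at 11 weeks. All 11 hepatocyte markers tested had a negative difference, with a median of -0.26, and none was called by limma (3 had an unadjusted p below 0.05). Their summed signals were 549848.2 and 486935.2 in the female and male knockout pools, against 625028.5 and 574402.2 in the wild-type pools. The endothelial markers summed to 5853.0 and 6402.3 in the knockout pools, against 15237.8 and 11509.6 in the wild-type pools, with a median difference of -1.10 over the 9 tested and 1 called lower. The macrophage and Kupffer cell markers summed to 14125.4 and 12818.7 in the knockout pools, against 23858.5 and 15700.3 in the wild-type pools, with a median of -0.56 over the 11 tested, 0 called and 5 with an unadjusted p below 0.05. Cholangiocyte markers overlapped, with sums of 827.3 and 622.8 in the knockout pools, against 604.5 and 1087.8 in the wild-type pools. Neutrophil markers, a list that includes Lcn2, summed to 6309.0 and 22392.7 in the knockout pools, against 3135.8 and 614.5 in the wild-type pools. Lcn2 alone had 5957.3 and 21325.9 in the knockout pools, against 2389.4 and 257.4 in the wild-type pools. Of the 5 neutrophil markers tested 3 had a positive difference, with a median of 0.14 and 0 called by limma (1 unadjusted). The ratio of the 3' to the 5' beta-actin control probe sets, a sign of RNA or cRNA integrity, was 3.38 and 3.18 in the knockout pools, against 2.62 and 2.597 in the wild-type pools. The part of these lists and of this ratio in the keratin difference was not tested.

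Prom1, which encodes the membrane protein prominin-1 (CD133) of progenitor cells, had signals of 1005.8 and 207.9 in the female and male knockout pools, against 170.4 and 71.2 in the wild-type pools. The groups did not overlap, and within each sex the knockout pool was higher. The difference of 1.90 ± 0.37 (SE) did not pass, with an adjusted p of 0.0699 by limma; it passed with quantile normalization (0.01), with the 75th percentile as centre (0.0401) and with each probe set as a row of its own (0.0381). Its size was 2.45 in females and 1.35 in males, and in the fit over all arrays 0.63 to 3.18 without any 1 pool. All 8 knockout arrays of any age had more Prom1 signal than both wild-type pools, the lowest being the male knockout pool.

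Krt23, a type I keratin of ductal epithelium, had signals of 506.4 and 367.0 in the female and male knockout pools, against 281.3 and 229.9 in the wild-type pools. The groups did not overlap, but the difference of 0.72 ± 0.27 (SE) did not pass (adjusted p 0.221). Krt8, Krt18, Krt23 and Prom1 were thus 4 of 8 members with knockout pools above wild-type pools without overlap, where 21.6% of all genes tested had such a pattern. Tff3, a small secreted protein of mucous epithelia, had 82.1 and 260.9 in the knockout pools, against 18.3 and 198.7 in the wild-type pools. Each knockout pool was above the wild-type pool of its own sex, by 1.49 in females and 0.37 in males, but the groups overlapped (0.93 ± 0.50, adjusted p 0.37). With Tff3, 5 of 8 members were higher in the knockout pool of both sexes, where 29.1% of all genes tested were.

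By the chosen probe sets, the bile duct genes proper did not separate the genotypes at 11 weeks. Krt19, the type I keratin of bile ducts, had signals of 184.5 and 88.3 in the female and male knockout pools, against 101.9 and 121.7 in the wild-type pools (0.18 ± 0.47, adjusted p 0.869). Sox9, a transcription factor of the biliary lineage, had 179.4 and 71.4 in the knockout pools, against 91.8 and 110.7 in the wild-type pools (0.16 ± 0.51, adjusted p 0.897). Epcam, an adhesion protein of cholangiocytes, had 207.2 and 14.6 in the knockout pools, against 120.0 and 211.8 in the wild-type pools (-1.08 ± 0.82, adjusted p 0.524). By these probe sets all 3 genes were higher in the knockout than in the wild-type pool in females, and lower in males. The other Sox9 probe sets, given below, did not cross between the sexes. Each separated the knockout from the wild-type pools without overlap, but in opposite directions. Krt7, the type II keratin of bile ducts, had signals of 20.4 and 24.7 in the knockout pools, against 13.8 and 57.3 in the wild-type pools, all under 91.

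**Figure D2:**
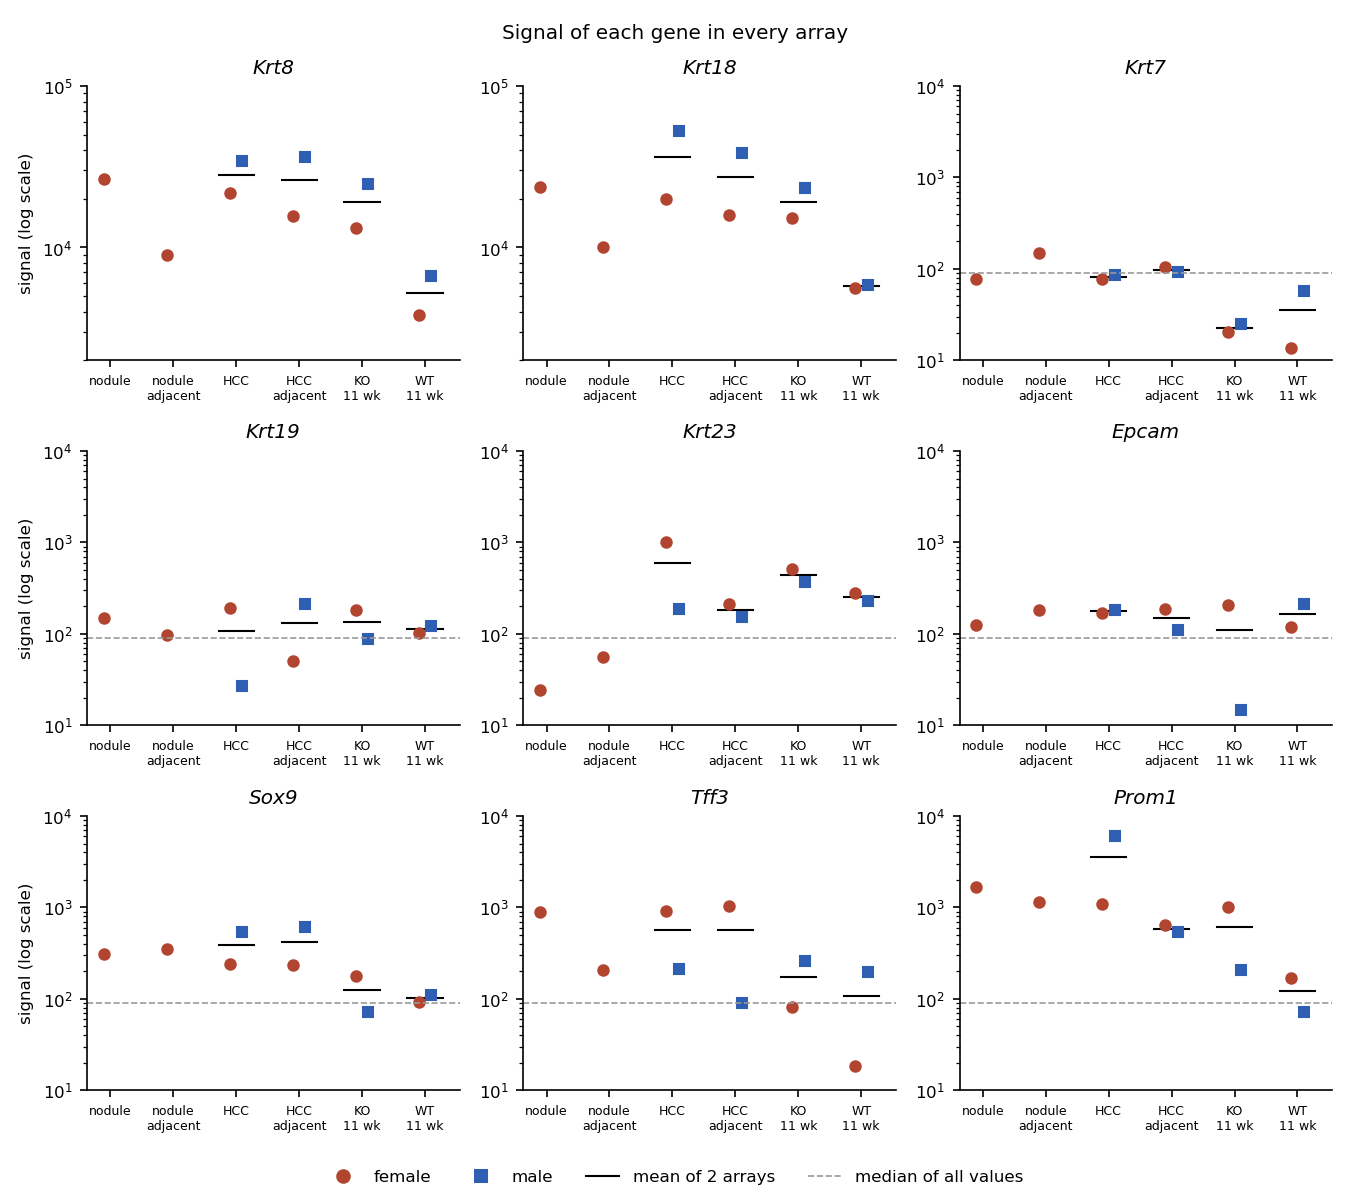
Signal (log axis) of the 9 measured genes in every array by group; circles are females, squares are males, bars are means of 2 arrays, and the dashed line is the median of all values (91). Krt8 and Krt18 lie in all arrays far above that line, and all Krt7, Krt19 and Epcam signals lie below 250.

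The sexes could be set against each other in the 4 pools of 11 weeks, and no member was called, where 0.243% of all genes tested were called (28 of 11507). By limma, 3 of 8 members and 1011 of all 11507 genes had an unadjusted p below 0.05. Tff3 was at 82.1 and 18.3 in the female knockout and wild-type pools, against 260.9 and 198.7 in the male knockout and wild-type pools. Both female pools were below both male pools, a pattern seen in 13% of all genes tested, and the difference was -2.05 ± 0.50 (adjusted p 0.33). Prom1 ran the other way within each genotype (1.64 ± 0.37, adjusted p 0.273), and Krt8 was lower in the female of each genotype (-0.84 ± 0.19, adjusted p 0.273). In both genotypes 2 of 8 members were higher in the female pool, where 31.5% of all genes tested were, and 3 were lower, where 25.3% were. Among the aged arrays the sexes differ in age and lesion, and there the Tff3 signals were 909.4 in the female HCC and 213.1 in the male HCC.

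Gene lists around these members were described in the same fit at 11 weeks. They were chosen with earlier results of these data known, so their counts and medians are descriptions only. Among other keratins, 5 of 14 passed the signal limit; 0 were called by limma (0 with an unadjusted p below 0.05), and their median difference was -0.22, where that of all genes tested was -0.05. Krt6a (-0.75 ± 0.41) and Krt80 (-0.60 ± 0.69) had the largest differences of these. Of the cholangiocyte and ductal genes, 17 of 26 were tested and 0 were called (3 unadjusted), with a median of -0.09. The largest were Bicc1, an RNA-binding protein whose loss gives cystic ducts in mice (-1.98 ± 0.58, adjusted p 0.154), and Dmbt1, a secreted scavenger receptor protein (-1.56 ± 1.35, adjusted p 0.578). Of the Notch and YAP pathway genes, which direct the biliary fate, 16 of 19 were tested and 0 called (2 unadjusted), with a median of -0.27. The receptors Notch1 (-0.80 ± 0.24, adjusted p 0.169) and Notch2 (-0.63 ± 0.23, adjusted p 0.218) had its largest differences.

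Of the fetal liver, progenitor and liver tumour genes, 13 of 15 were tested and 2 were called higher in knockout pools. These were Afp, the fetal serum protein alpha-fetoprotein (4.17 ± 0.36, adjusted p 0.0141), and Ly6d, a surface protein of the Ly6 family (2.71 ± 0.33, adjusted p 0.0266). The median of the list was 0.14. Of the binding partners and stress proteins of the keratin network, 12 of 14 were tested and 0 were called (4 unadjusted), with a median of 0.08. Lmna, the nuclear intermediate filament lamin A/C (0.94 ± 0.24, adjusted p 0.123), and Ppl, the cytolinker periplakin (0.80 ± 0.26, adjusted p 0.18), had its largest differences.

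**Figure D3:**
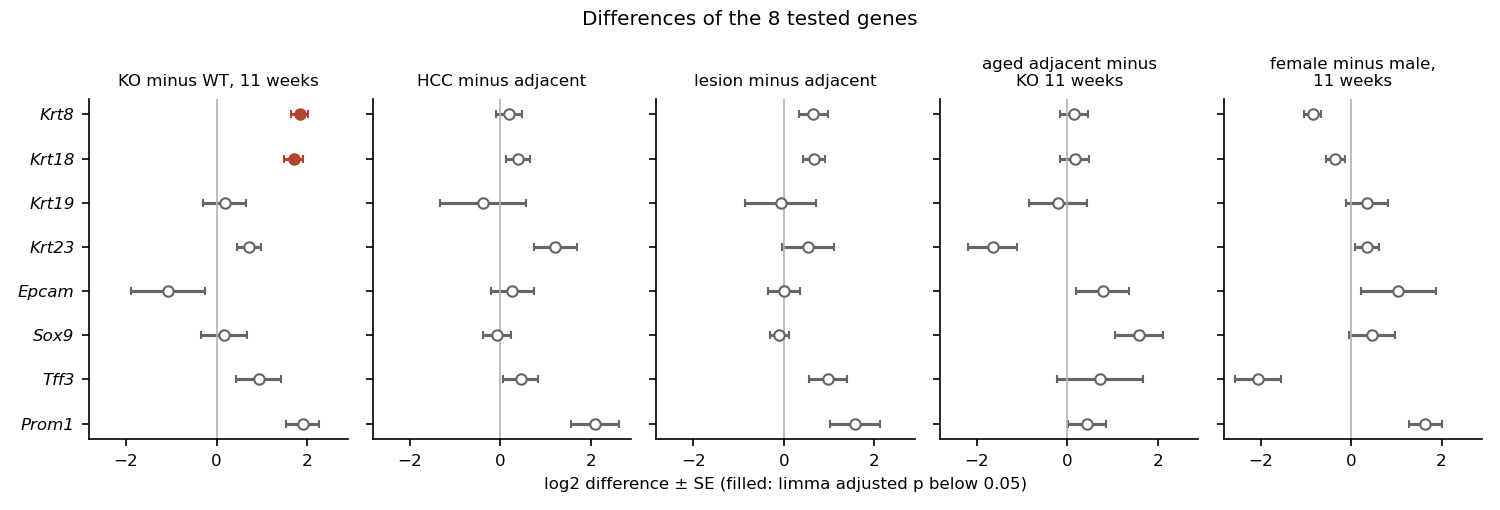
Log2 difference ± SE of the 8 tested genes in the 5 comparisons with a test; filled points have a limma adjusted p below 0.05. Only Krt8 and Krt18, in knockout against wild-type liver at 11 weeks, are filled.

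In the nodule, the keratin pair and Tff3 were more than 2-fold above the adjacent liver, with 1 array a side and no test. Krt8 was at 26422.7 in the nodule and 8934.5 beside it, a log2 difference of 1.56. Krt18 was at 23811.2 in the nodule and 10027.2 beside it (1.25). Tff3 was at 901.8 in the nodule and 204.5 beside it (2.05). These were 3 of 8 members at least 2-fold higher, where 8.63% of all genes tested were at least 2-fold higher and 4.36% at least 2-fold lower. Krt23 lay at 24.2 in the nodule and 55.9 beside it (-0.83), and Krt7 at 77.4 and 149.3 in that order (-0.82). Krt19 (0.56), Prom1 (0.52), Epcam (-0.50) and Sox9 (-0.16) differed less by the chosen probe sets. The other Sox9 probe sets disagreed, with differences of 0.89 and, for one below the signal limit, -2.08. A second Epcam probe set had 0.79.

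In the 2 carcinomas no member was called against adjacent liver, where 0.0869% of all genes tested were called (10 of 11507; 0.0695% higher and 0.0174% lower). By limma, 2 of 8 members, Prom1 and Krt23, and 873 of all 11507 genes had an unadjusted p below 0.05. Prom1 was at 1092.7 and 6023.3 in the female and male HCC, against 641.6 and 534.5 in the adjacent livers of the same mice. Both carcinomas were above both adjacent livers, a pattern seen in 13.1% of all genes tested. The Prom1 difference was 2.10 ± 0.53 (SE, adjusted p 0.268), made of 0.75 in the female and 3.45 in the male. In the fit over all arrays it was 0.29 without the male HCC and 3.91 without the female HCC. Krt23 was at 1009.6 and 188.7 in the female and male HCC, against 211.8 and 154.0 in the adjacent livers. The female carcinoma stood far above the other 3 arrays, and the difference was 1.22 ± 0.47 (adjusted p 0.587). The summed cholangiocyte marker signal was 2050.1 in that female HCC and 907.0 beside it, and 1146.2 in the male HCC and 1684.4 beside it. Of these markers, Cldn7 alone had 657.3 in the female HCC and 65.3 beside it, and 22.9 in the male HCC and 95.4 beside it. The part of these markers in the Krt23 signal was not tested.

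The keratin pair overlapped between the carcinomas and their adjacent livers. Krt18, Krt23 and Prom1 were 3 of 8 members higher in both carcinomas than beside them, where 25.7% of all genes tested were, and none of the 8 was lower in both, where 27.4% were. Krt8 was at 21660.6 and 34323.7 in the female and male HCC, against 15593.4 and 36393.6 in the adjacent livers (0.19 ± 0.28, adjusted p 0.947). By the other Krt8 probe sets both carcinomas were above their own adjacent liver. Krt18 was at 20092.3 and 52272.4 in the HCC, against 15864.5 and 38489.0 in the adjacent livers (0.39 ± 0.27, adjusted p 0.837). The mouse separated the signals more than the tissue did, with both male arrays above both female arrays for either gene. Tff3 also followed the mouse, with 909.4 and 213.1 in the female and male HCC, against 1048.7 and 90.1 beside them (0.45 ± 0.38, adjusted p 0.881). Sox9 was at 238.2 and 543.7 in the HCC, against 236.2 and 610.2 beside them (-0.08 ± 0.31, adjusted p 0.987). A second Sox9 probe set differed by 0.16 in the female and -1.40 in the male. The remaining one, below the signal limit, differed by -1.22 and -0.325 in that order. Krt19 was at 190.3 and 26.7 in the HCC, against 50.4 and 210.5 beside them, so it was higher in the female tumour and lower in the male one (-0.38 ± 0.95, adjusted p 0.974). Epcam stayed between 110.7 and 185.2 in these 4 arrays (0.26 ± 0.48, adjusted p 0.956). Krt7 was at 77.3 and 85.3 in the HCC, against 103.8 and 91.3 beside them, so both carcinomas were lower.

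Over all 3 lesions, the members had no call either, where 0.00869% of all genes tested were called (1 of 11507), and 2 of 8 members and 1125 of all genes had an unadjusted p below 0.05 by limma. None of the 8 tested members had the 3 lesions all above or all below the 3 adjacent livers, patterns seen in 4.82% and 4.01% of all genes tested. Krt7, which was below the signal limit, had 77.4 in the nodule and 77.3 and 85.3 in the female and male HCC, against 149.3, 103.8 and 91.3 beside them. All 3 of its lesion signals were below all 3 adjacent ones; fitted without the limit the difference was -0.42 ± 0.43 (adjusted p 0.836). Krt18 and Prom1 were higher in the lesion in all 3 mice, a pattern seen in 16.1% of all genes tested. Their differences were 0.68 ± 0.24 (adjusted p 0.442) and 1.58 ± 0.56 (adjusted p 0.439). Without the male HCC mouse that of Prom1 was 0.64. Krt8 (0.65 ± 0.32, adjusted p 0.574) and Tff3 (0.99 ± 0.42, adjusted p 0.528) were each higher in 2 of the 3 lesions. By the other Krt8 probe sets that gene was higher in all 3 lesions, by 0.30 and 0.16 in the male HCC. Krt23 (0.54 ± 0.58), Epcam (0.01 ± 0.36), Krt19 (-0.07 ± 0.78) and Sox9 (-0.10 ± 0.21) went in different directions from mouse to mouse. By the Sox9 probe set below the signal limit that gene was lower in all 3 lesions.

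**Figure D4:**
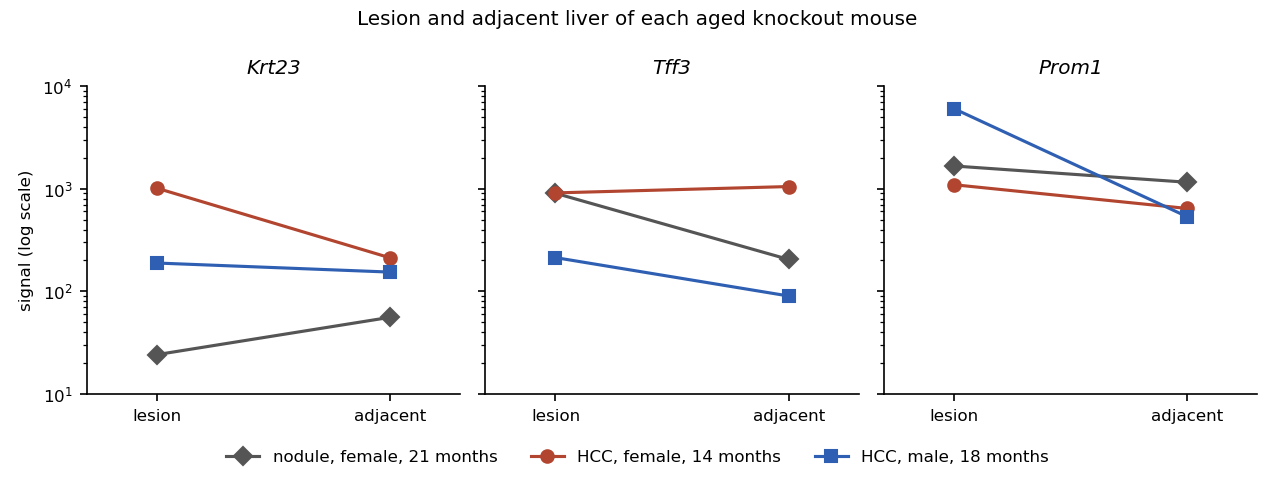
Signal (log axis) of Krt23, Tff3 and Prom1 in each lesion and the adjacent liver of the same mouse, joined by a line; diamonds are the nodule mouse, circles the female and squares the male HCC mouse. Prom1 is higher in all 3 lesions, Krt23 in both carcinomas only, and Tff3 in the nodule and the male carcinoma.

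Called genes of the related lists in the lesions lay among the fetal liver, progenitor and liver tumour genes. In HCC, 2 of the 13 tested were called higher: Cpe, the prohormone-processing carboxypeptidase E (4.33 ± 0.28, adjusted p 0.00164), and Tspan8, a tetraspanin (2.73 ± 0.29, adjusted p 0.0256). The median of that list was 1.92, where the median of all genes tested was -0.003. The list was chosen with earlier results of these data known, so its calls and median are descriptions only. Cpe was also the gene called over all 3 lesions (4.33 ± 0.20, adjusted p 0.00338). Of the cholangiocyte and ductal genes none of 17 was called in HCC by limma (5 unadjusted), with a median of 0.33; St14, an epithelial serine protease (2.20 ± 0.87, adjusted p 0.602), and Cd24a, a surface glycoprotein of progenitor and tumour cells (2.02 ± 0.28, adjusted p 0.0509), had its largest differences. In the nodule, with 1 array a side and no test, 8 of these 17 were at least 2-fold higher and 1 at least 2-fold lower. Among the 13 fetal liver, progenitor and tumour genes, 9 were at least 2-fold higher and 2 at least 2-fold lower. The shares over all genes tested were 8.63% and 4.36%. Both lists were chosen with earlier results known, so these counts are descriptions only. Of the Notch and YAP genes none of 16 was called in HCC (2 unadjusted), with a median of 0.24, led by the ligand Jag1 (1.01 ± 0.38, adjusted p 0.572). The other keratins (median 0.17 over 5) and the keratin partners (median 0.43 over 12) had 0 calls in HCC, with 0 and 2 genes at an unadjusted p below 0.05.

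Aged knockout liver next to a lesion was set against young knockout liver, and no gene was called by limma, where 1393 of 11507 had an unadjusted p below 0.05; percent called was 0. Sox9 was at 348.0 beside the nodule and 236.2 and 610.2 beside the female and male HCC, against 179.4 and 71.4 in the female and male knockout pools of 11 weeks. All 3 aged livers were above both young pools, a pattern seen in 16.9% of all genes tested, and the difference was 1.57 ± 0.53 (SE, adjusted p 0.393). Without the female knockout pool it was 2.83 and passed (adjusted p 0.0479), with the young side then a single array. Krt23 was at 55.9, 211.8 and 154.0 in these aged livers, against 506.4 and 367.0 in the young knockout pools. All 3 were below both young pools, a pattern seen in 10.6% of all genes tested (-1.66 ± 0.55, adjusted p 0.393). Krt7, fitted without the signal limit, had 149.3, 103.8 and 91.3 in the aged livers, against 20.4 and 24.7 in the young pools (1.69 ± 0.53, adjusted p 0.502).

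The keratin pair did not separate aged from young knockout liver. The difference was 0.14 ± 0.32 for Krt8 (adjusted p 0.867) and 0.16 ± 0.32 for Krt18 (adjusted p 0.854), and both turned below 0 with the 75th percentile as centre (-0.04 and -0.02). The other Krt8 probe sets were also below 0, at -0.07 and -0.10. Prom1 (0.43 ± 0.42), Tff3 (0.72 ± 0.95), Epcam (0.78 ± 0.59) and Krt19 (-0.21 ± 0.64) had overlapping groups by the chosen probe sets. A second Epcam probe set, given below, did not overlap. Immune cell markers also differed between these livers. The neutrophil markers summed to 23449.3 beside the nodule and 18371.5 and 101591.3 beside the female and male HCC, against 6309.0 and 22392.7 in the female and male knockout pools. Most of each sum was Lcn2, with 22619.9, 16792.5 and 87553.4 in these aged livers, against 5957.3 and 21325.9 in the pools. All 5 neutrophil markers tested had a positive difference, with a median of 1.85, 0 called by limma and 4 with an unadjusted p below 0.05. All 11 macrophage markers tested were positive (median 0.67, 2 unadjusted), and 0 were called. The B and plasma cell list held Jchain under a second name too, so its 7 entries are fewer genes. Of these entries 6 were positive (median 0.91, 3 unadjusted), with Jchain counted again, and 0 were called. The part of these marker lists in the Sox9, Krt23 and Krt7 differences was not tested. Of the 5 related lists none had a call here, and their medians were 0.02 to 0.50, where that of all genes tested was 0.09. The largest differences among the cholangiocyte and ductal genes were those of Bicc1 (3.25 ± 0.67, adjusted p 0.357) and of Mmp7, a secreted protease of ductal epithelium (2.96 ± 1.15, adjusted p 0.402), and 3 of those 17 genes had an unadjusted p below 0.05. The ratio of the BioC to the BioB control spikes, by their 5' probe sets, was 1 to 1.60 on the 6 arrays of aged mice and 2.98 to 4.16 on the 4 arrays of 11 weeks, so age, adjacency to a lesion and the hybridisation cannot be told apart here.

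For Sox9 and Epcam the probe sets disagreed. A second Sox9 probe set had 51.8 and 25.2 in the female and male knockout pools, against 86.4 and 89.5 in the wild-type pools. By this probe set both knockout pools were below both wild-type pools. Its difference was -0.96 ± 0.66 (adjusted p 0.464 by limma), where the first gave 0.16. In the aged adjacent livers it had 176.0, 113.2 and 334.9, so it too was higher than in both young knockout pools (2.003 ± 0.57, adjusted p 0.359). The remaining Sox9 probe set, below the signal limit, had 168.5 and 87.9 in the knockout pools, against 9.1 and 28.3 in the wild-type pools, so it was higher in both knockout pools, by 2.84 in females and 1.22 in males. In the aged adjacent livers it had 110.8, 54.4 and 34.7, which overlapped the young knockout pools, so it did not show the aged difference of the other probe sets. The second Epcam probe set had 49.5 and 34.5 in the female knockout and wild-type pools, against 29.9 and 60.0 in the male ones, a female less male difference of -0.04 where the first gave 1.05. It was called in no comparison by limma, and was at 131.0, 309.5 and 149.1 in the nodule and the female and male HCC, against 68.5, 184.3 and 220.9 beside them. Those adjacent livers were all above both young knockout pools (1.57 ± 0.61, adjusted p 0.398 by limma), whereas by the first Epcam probe set these groups overlapped.

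Over the 10 arrays, Krt8 and Krt18 had a Pearson r of 0.97 on the log2 scale, and Krt18 ranked 3 among all genes tested for likeness to Krt8. The genes most like Krt8 outside the members were Tomm40l, a mitochondrial import channel protein (r = 0.989), Tbl3, a ribosome biogenesis protein (0.967), and Uhrf1, a chromatin protein of DNA methylation maintenance (0.956). Those most like Krt18 were Mybbp1a, a nucleolar protein (0.976), Tuba8, an alpha-tubulin (0.973), and Tomm40l (0.972). Krt8 had an r of -0.04 with Krt19 and -0.07 with Krt23. Prom1 was most like Ddx25 (0.967), Ppl (0.955) and Prkab1 (0.949), and had an r of 0.76 with Sox9. Krt23 was most like Ctse (0.929), Pnmal2 (0.9) and Dsp, which encodes desmoplakin, the desmosomal anchor of keratin filaments (0.894).

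For the remaining members the most alike genes were Ints4 (0.947), Dhx37 (0.837) and Cnnm1 (0.819) for Krt19. For Epcam they were Il17re (0.918), Rnf24 (0.914) and Erg (0.913). For Sox9 they were Chil1 (0.954), Cnot4 (0.951) and Sike1 (0.947), and for Tff3 they were Mthfd2l (0.867), Mcl1 (0.865) and Fndc10 (0.865). These values are descriptions over 10 points that share mice, and 6 of the points share the aged group, so they carry no test.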

How the data were processed

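Liver RNA of 10 samples was measured on 1-colour Affymetrix arrays, 1 array a sample. Per the labels' protocols, biotinylated cRNA was made from 5 ug of total RNA, and the submitters' processing notes name the GCOS software; its version and settings are not given in the sources used here. The deposited values are signal intensities on a linear scale, from 0.1 to 122580.5, and the trimmed mean of every array (2% left out at each end) was 500. Of 45101 probe sets, 64 were controls and 34945 had 1 gene symbol in the platform table used; 932 had several and 9160 were not named.

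Here 16.8 (the 20th percentile of the table) was added to the signals before log2. The brightest probe set on average stood for a gene, and genes with a mean above 91 were tested with limma 3.58.1 in R 4.3.3, with an intensity trend. Benjamini-Hochberg adjustment covered all 11507 genes, and an adjusted p below 0.05 made a call. Sex, or the mouse as inferred from sex and age for lesion pairs, was a term. All 10 members were named, with the 3 genes most correlated with each, and the largest differences of 5 gene lists. The nodule alone was described without a test. Nothing says whether pools were prepared apart. The p-values rest on the spread between these few samples and on the spread shared across genes, and do not measure the spread between replicate mice. The fits were also tested on simulated data of the same designs, where calls were false more often than the threshold sets, in all 5 tested comparisons. The members and lists were chosen with earlier results of these data known. Alternatives changed the added constant, normalization, filter, trend, probe set rule, terms and arrays used.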

Additional observations from a re-analysis of the deposited data

Results flagged for a closer look

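Some members moved one way in females and the other way in males, and none of these differences between the sexes was tested, because each sex has a single array per group; the limma fits hold no interaction term. For knockout against wild-type liver at 11 weeks, the female difference less the male difference was 1.16 for Krt19 (0.76 in females and -0.40 in males). It was 3.58 for Epcam (0.71 in females and -2.86 in males) and 1.39 for Sox9 (0.85 in females and -0.53 in males). The other Sox9 probe sets kept their sign in both sexes. One had -0.59 in females and -1.34 in males, and the remaining one 2.84 and 1.22. The Epcam value turns on the male knockout pool, whose signal was 14.6; the second Epcam probe set had 29.9 in that pool.

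For HCC against adjacent liver, where each sex is 1 mouse of a different age, the same quantity was 4.01 for Krt19 (1.62 in the female and -2.39 in the male). It was 0.56 for Krt8 (0.47 in the female and -0.08 in the male). By the other Krt8 probe sets the male HCC was also above its adjacent liver (0.30 and 0.16). The quantity was -0.75 for Epcam (-0.11 in the female and 0.64 in the male). The second Epcam probe set had the opposite signs (0.70 in the female and -0.52 in the male). For Sox9 the quantity was 0.17 (0.01 in the female and -0.16 in the male), and for Tff3 it was -1.31 (-0.20 in the female and 1.11 in the male). The second Sox9 probe set had 0.16 in the female and -1.40 in the male, and the remaining one -1.22 and -0.325. No group holds 4 arrays, so no array was tested for standing apart within its group.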

How the results depend on the processing

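Of 592 values of members under the alternatives, 521 were counted as unchanged, 15 lost and 3 gained a call, and 53 were counted as changing sign. All 40 values of the nodule, which had no test, were counted as unchanged. Among them the Epcam difference nevertheless ran from -0.62 to 0.15, so it also changed sign. The cause of a change was not tested unless given here. For knockout against wild-type liver at 11 weeks, 88 genes were called, and 133 with a smaller added constant, 542 with quantile normalization, 258 with 75th percentile centring, 138 with no filter, 1 without the trend, 30 with the mean of all probe sets, 2 in 1 fit over all 10 arrays and 2 with no sex term. The members called, 2, became 1 with the mean of all probe sets (Krt8) and 0 without the trend, in the fit over all arrays and with no sex term. Leaving out 1 pool, in the fit over all other arrays, gave 0 to 9 genes and 0 members. Krt8 differed by 1.70 to 1.99 and Krt18 by 1.19 to 2.22 over all settings. Chosen after the data were seen, probe sets and filter by mean log2 value gave 160 genes, and each probe set by itself gave 452 in this comparison and 47 between the sexes.

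HCC against adjacent liver had 10 calls, 3 with quantile normalization, 3 with 75th percentile centring and 19 with no filter. It had 0 without the trend, with the mean of probe sets, in the fit over all arrays, with no replicate block (no mouse term) and without any 1 array. All lesions had 1 call, 3 with no filter, 0 under the same 4 settings (no replicate block among them), and 2 to 135 without 1 mouse: 10 without the nodule mouse, 135 without the male and 2 without the female HCC mouse. Aged adjacent against young knockout liver had 0 calls, and 0 to 354 without 1 array (354 genes and 1 member without the female knockout pool, 152 without the nodule-adjacent liver, 12 without the female HCC-adjacent liver). The sexes had 28 calls, 71 with quantile normalization, 2 without the trend, 18 with the mean of probe sets, 9 in the fit over all arrays and 5 to 23 without 1 array.

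Reversed values outside the left-out arrays were small or came from another population. In lesions Epcam became -0.023 (quantile) and -0.057 (75th percentile). In the nodule alone, where its difference was -0.50, the highest Epcam value was 0.15. In aged against young knockout liver, Krt8 became -0.039 (75th percentile), -0.01 (mean of probe sets) and -0.076 (no sex term), and Krt18 -0.023 (75th percentile) and -0.039 (no sex term). Between the sexes, the fit over all arrays gave -0.38 for Sox9 and 0.31 for Tff3, since its sex term also covers the aged mice. Without 1 array or mouse, the genotype difference ran from -0.24 to 0.61 for Krt19, -1.02 to 2.88 for Tff3, -2.52 to 0.37 for Epcam, -0.86 to 1.18 for Sox9 and, with no change of sign, 0.63 to 3.18 for Prom1. That of HCC ran from -1.75 to 0.99 for Krt19, -0.24 to 0.76 for Epcam, -0.69 to 0.54 for Sox9, -1.56 to 2.46 for Tff3, -0.024 to 0.41 for Krt8 and, with no change of sign, 0.29 to 3.91 for Prom1. That of all lesions ran from -0.30 to 0.26 for Epcam, -0.92 to 1.09 for Krt19 and -0.28 to 1.22 for Krt23. That of aged against young ran from -0.17 to 0.56 for Krt8, -0.26 to 0.72 for Krt18, -0.15 to 2.02 for Epcam, -0.22 to 1.295 for Prom1, -1.21 to 1.11 for Krt19 and -1.38 to 2.30 for Tff3. Between the sexes, in fits that also cover the aged mice, it ran from -0.89 to -0.43 for Sox9, 0.90 to 1.28 for Tff3, -0.37 to -0.001 for Prom1 and -0.053 to 1.14 for Epcam. Krt7, Krt19 and Epcam lie near the median of all values, and detection calls were not used here.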
